A study of Drosophila melanogaster with 3 samples.

Results

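Translation initiation factor (eIF) genes encode the proteins that bring a ribosome, the initiator tRNA and an mRNA together at a start codon. They were taken here as the protein-coding genes of the dm6 annotation whose symbol begins with eIF and a digit, which gave 44 of 13968 protein-coding genes. They comprise 2 genes of the eIF1 group, 10 of eIF2 with its exchange factor eIF2B and the eIF2A and eIF2D genes, 16 of eIF3, 13 of eIF4, 2 of eIF5 and 1 of eIF6. Of these, 6 are known as testis or male germline copies (eIF3f2, eIF3g2, eIF4E3, eIF4E5, eIF4E7 and eIF4G2), and the other 38 are called ubiquitous here, although eIF4E4, eIF4E6 and eIF3d2 are further copies whose expression is less certain.

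The data are peak lists from chromatin immunoprecipitation and sequencing (ChIP-seq) with an anti-GFP antibody in Drosophila melanogaster. All 3 libraries belong to 1 group: white prepupae, whole animals of mixed sex, of a transgenic line in which topi carries eGFP, with sonicated chromatin selected at 200 to 800 bp. Topi is a zinc-finger subunit of a testis complex that turns on genes of meiosis and sperm formation, and the comparison asked which eIF genes have signal at their start sites and whether the testis copies stand apart from the ubiquitous ones. No untagged animals are among the samples, so signal that does not come from the tagged protein cannot be told apart, and in whole animals a strong signal in few cells and a weak one in many cannot be told apart either.

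In the cell, eIF2 bound to GTP delivers the initiator tRNA to the small ribosomal subunit, where eIF1, eIF1A, eIF3 and eIF5 assemble with it. The cap-binding protein eIF4E, the scaffold eIF4G and the helicase eIF4A bring in the mRNA, the start codon is found by scanning, eIF5 triggers GTP hydrolysis and eIF5B joins the large subunit, which eIF6 keeps apart until then. In Drosophila testes, several of these factors have additional gene copies, among them eIF4E3 and eIF4G2, which are known to act in male meiosis and sperm formation.

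Relaxed lists of 30000 peaks were deposited for every replicate and for their pool, beside a stricter set of 8424 peaks selected by irreproducible discovery rate (IDR). Peak strength is the signal value the authors deposited, an enrichment score that is not scaled between libraries, so replicates are compared by rank (rank 1 is the strongest peak of a list), and the 8424 strongest peaks of each replicate are called its strongest set. No read counts are given, so depth is unknown. The relaxed lists include background regions, and an absent summit means only that none reached the list. A gene was counted when a peak summit lay within 500 bp of any of its annotated transcription start sites (TSSs). Unless stated otherwise, each list's value is that of its strongest summit in this window, which need not be the same peak in every list. Whether the replicates came from separate collections is not stated beyond their biological replicate numbers.

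An IDR summit lay at 14 of the 44 eIF genes (31.8%), against 24.3% of all protein-coding genes. All 14 were ubiquitous members (36.8% of 38), and none of the 6 testis copies had one. Counting only IDR peaks that the other replicates' strongest sets support, the 14 became 9 without replicate 2, 9 without replicate 3 and 12 without replicate 1, against 17.1%, 16.2% and 20.1% of protein-coding genes. By factor, the count was 1 of 2 for eIF1, 4 of 10 for eIF2, 3 of 16 for eIF3, 4 of 13 for eIF4, 1 of 2 for eIF5 and 1 of 1 for eIF6. The pooled relaxed list held a summit at 21 eIF genes (47.7%), against 42.5% of protein-coding genes. These shares were a few genes apart from the background, and the list was described without a test.

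Among the strongest sets, replicate 1 held 9 eIF genes (20.5%) against 22.0% of protein-coding genes. Replicate 2 held 17 (38.6%) against 27.4%, and replicate 3 held 16 (36.4%) against 25.5%. The mean over replicates was 31.8% ± 9.91 for eIF genes and 25.0% ± 2.73 for protein-coding genes (SD, n = 3 each), so the gap between the means was smaller than the replicate spread of the eIF share. In the whole relaxed lists the eIF counts were 20, 32 and 24 in replicates 1, 2 and 3, or 45.5%, 72.7% and 54.5%, against 37.9%, 50% and 46.1% of protein-coding genes. Of the 44 genes, 9 were in all 3 strongest sets (20.5%, against 16.4% of protein-coding genes) and 24 in none (54.5%, against 66.2%).

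**Figure D1:**
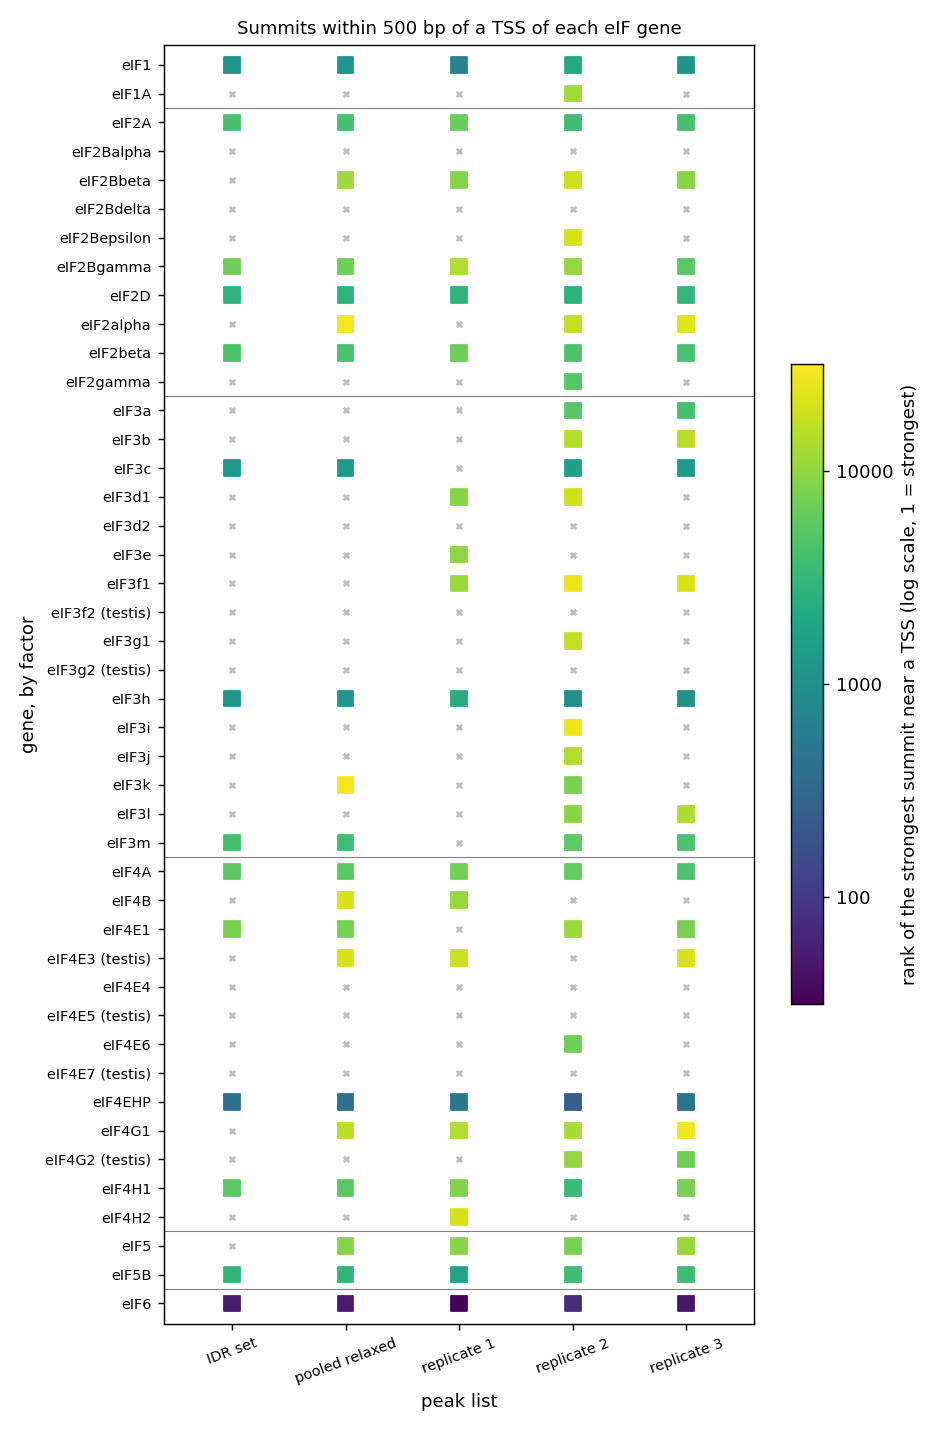
Rank of the strongest summit within 500 bp of a TSS for each of the 44 eIF genes (down, by factor) in the IDR set, the pooled relaxed list and the 3 replicates (across), where dark squares are strong ranks on a log scale and crosses mark no listed summit. eIF6 and eIF4EHP are the darkest in every list, and the testis copies have crosses in the IDR set.

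**Figure D2:**
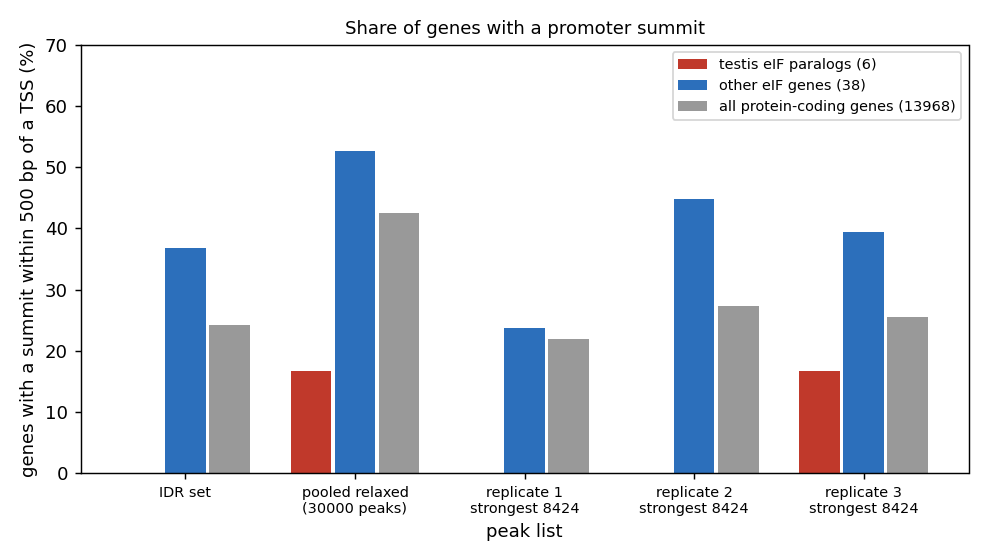
Percentage of genes with a summit within 500 bp of a TSS (vertical axis) in the IDR set, the pooled relaxed list and the 8424 strongest peaks of each replicate (horizontal axis), for the 6 testis copies, the other 38 eIF genes and all 13968 protein-coding genes. No red bar stands over the IDR set or the strongest sets of replicates 1 and 2, which held none of the 6 testis copies.

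Sequences are given for 3 of the strongest eIF summits, to show the DNA under these peaks and which motifs it holds. They are read from the dm6 genome 50 bases either side of the summit, on the strand of the gene, 5′ to 3′, with matches to the motifs named further on in capitals. The eIF4EHP window is chr3R:24109116-24109216 (minus strand), the eIF1 window chr3L:3222969-3223069 (plus strand) and the eIF3h window chr2L:5052468-5052568 (minus strand).
eIF4EHP: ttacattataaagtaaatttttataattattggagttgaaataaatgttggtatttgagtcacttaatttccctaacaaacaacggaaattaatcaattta
eIF1: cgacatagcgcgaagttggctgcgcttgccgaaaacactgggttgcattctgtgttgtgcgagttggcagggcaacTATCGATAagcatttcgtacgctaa
eIF3h: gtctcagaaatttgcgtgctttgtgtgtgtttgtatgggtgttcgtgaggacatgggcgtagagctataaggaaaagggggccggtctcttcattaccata
The capitals in the eIF1 window are a complete DNA replication-related element (DRE, TATCGATA), and the windows of eIF4EHP and eIF3h held none of the motifs searched.

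eIF4EHP encodes a cap-binding protein that does not bind eIF4G and represses translation. Its IDR peak (FBgn0053100, chr3R:24108912-24109406) had a pooled signal of 834 and rank 385. The replicate signals were 181, 348 and 320 in replicates 1, 2 and 3, at ranks 488, 247 and 461. It was the second strongest eIF peak in every replicate. The summit lay at -206 bp from the TSS of eIF4EHP (negative distances are upstream) and 170 bp from that of CG18428, which runs the other way, so the peak is nearer to the neighbour.

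eIF1 (FBgn0035423), the factor that guards start codon choice, shared its peak region with RpL28, which encodes a protein of the large ribosomal subunit and is transcribed away from it. The stronger summit (chr3L:3222872-3223186) had a pooled signal of 468 and rank 1151, and replicates 1, 2 and 3 gave signals of 148, 111 and 197 at ranks 701, 2096 and 1135. At -322 bp from eIF1 and 59 bp from the TSS of RpL28, it was the farthest from its TSS of all 14 eIF genes. A second IDR summit with a signal of 144 lay 123 bp from the TSS of eIF1, closer to eIF1 than to any other gene. The replicates ranked that weaker summit at 6030, 15116 and 3994. The partner factor eIF1A, which works with eIF1 in scanning, was listed by replicate 2 alone, at rank 12204.

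Among the eIF2 genes, none of the IDR peaks was among the 2000 strongest of the pool. eIF2D, whose mammalian counterpart can deliver tRNA to the ribosome without GTP, had the strongest, with a pooled signal of 256 and rank 2736 at -172 bp (chr3R:29151751-29152180). Its signals were 60.1, 93.5 and 104 and its ranks 2807, 2685 and 2958 in replicates 1, 2 and 3, so the replicates placed it close together. eIF2A, known in mammals for initiation at unusual start codons, had a pooled signal of 183 and rank 4118 at -42 bp (chr3L:21824708-21825137). It had signals of 26.5, 73.6 and 79.2 and ranks of 6720, 3776 and 4142, weakest in replicate 1. eIF2D and eIF2A were in the strongest sets of all 3 replicates.

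The trimeric eIF2 itself was listed unevenly. eIF2beta, the subunit that contacts eIF5 and eIF2B, was the only one of its 3 genes with an IDR summit. That summit had a pooled signal of 176 and rank 4338, at -292 bp (chr3L:12526933-12527098), and replicates 1, 2 and 3 gave signals of 25.7, 64.9 and 76.1 at ranks 6908, 4526 and 4324. eIF2alpha, whose phosphorylation lowers initiation under stress, had no IDR summit. It stood near the end of the pooled relaxed list at rank 28544, with that summit at -262 bp. Replicate 3 had rank 23088 at -297 bp, and replicate 1 listed none. The strongest summit of replicate 2 lay elsewhere, at 316 bp and rank 16572. eIF2gamma, which binds GTP and the tRNA, was listed by replicate 2 alone, at rank 5157. It shares a TSS with Su(var)3-9, a histone methyltransferase gene, so the 2 genes cannot be separated there.

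Of the 5 subunits of eIF2B, the exchange factor that recharges eIF2 with GTP, only eIF2Bgamma had an IDR summit. Its peak lay at 9 bp from the TSS, the nearest of the 14, with a pooled signal of 113 and rank 6937. The signals were 11.8, 33.1 and 62.4, and the ranks were 14018, 10195 and 5440 in replicates 1, 2 and 3, so replicate 3 alone had it in its strongest set. eIF2Bbeta had a weaker pooled relaxed summit at 9 bp, at rank 11638, and replicate ranks of 8858, 18820 and 9333. The summit of the strongest peak of the whole IDR set, with a signal of 4484, lay 685 bp from the TSS of eIF2Bbeta, outside the window. Its closest TSS, at 34 bp, was that of Ugalt, a sugar nucleotide transporter gene. The catalytic subunit gene eIF2Bepsilon was listed by replicate 2 alone at rank 20586, and eIF2Balpha and eIF2Bdelta were in none of the 5 lists.

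eIF3, the large scaffold of the small-subunit complex, had the lowest IDR share of the groups with 10 or more genes. It was 3 of 16, few genes away from the 24.3% of all protein-coding genes. The whole list of replicate 2 gave another order, with 12 of 16 for eIF3, 8 of 10 for eIF2 and 7 of 13 for eIF4. Among the eIF3 genes, eIF3h (FBgn0022023), a gene for a subunit outside the conserved core, had the strongest peak. Its pooled signal was 464 at rank 1170 (chr2L:5052333-5052622). This summit lay in an intron at 262 bp, and replicates 1, 2 and 3 gave signals of 68.9, 177 and 209 at ranks 2374, 976 and 1020. A second IDR summit, with a signal of 347, lay at 10 bp and ranked 7336, 1264 and 1669 in the replicates. Both summits were strongest by rank in replicates 2 and 3 and in the strongest sets of all 3.

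eIF3c (FBgn0034258), a core subunit that contacts eIF1 and eIF5, had a pooled signal of 428 and rank 1334 at -60 bp (chr2R:17665482-17665790). Replicates 2 and 3 gave signals of 135 and 178 at ranks 1552 and 1361, and replicate 1 listed no summit at it. eIF3m, a further subunit of the complex, showed the same gap: its pooled signal was 193 at rank 3864 (chr2R:14164917-14165048), with signals of 54.3 and 74.2 and ranks of 5673 and 4467 in replicates 2 and 3, and none in replicate 1. Its summit lay at -129 bp, with the TSS of CG8323 nearer at 97 bp. Over the whole IDR set, 7.97% of peaks had no overlapping peak in the list of replicate 1, against 1.32% for replicate 2 and 0.321% for replicate 3, and of the 2000 strongest IDR peaks 1.15% had none in replicate 1. Why replicate 1 lacked them was not tested.

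The other eIF3 subunits were weak or absent in the pool. eIF3a, the largest scaffold subunit, ranked 5153 in replicate 2 and 3971 in replicate 3, at -110 and -73 bp, but had no summit in replicate 1 or in either pooled list. Likewise eIF3b, a core subunit, was listed only in replicates 2 and 3, at ranks 14669 and 15530. So was eIF3l, at ranks 9144 and 13583, but with summits at 244 and -332 bp. Of the rest, eIF3g1, eIF3i and eIF3j were listed by replicate 2 alone at ranks between 13990 and 26401, eIF3e by replicate 1 alone at rank 9832, and eIF3d1 by replicates 1 and 2. eIF3f1 appeared in all 3 replicates at ranks of 11380, 25652 and 21415, but with summits at 46, 418 and 333 bp. eIF3k was listed in replicate 2 at rank 7998 and -63 bp, and in the pool at rank 28496 and 126 bp. Neither the additional copy eIF3d2 nor the testis copies eIF3f2 and eIF3g2 had a summit in any list.

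At the cap-binding complex, the helicase eIF4A had a pooled signal of 142 at rank 5482 and -76 bp, and a second IDR summit, with a signal of 102, near another of its start sites. At the stronger summit, signals were 21.8, 52.3 and 72.7 at ranks 7991, 5960 and 4561 in replicates 1, 2 and 3. At the other one they were 24.7, 42.2 and 43.1 at ranks 7191, 7737 and 8263, so replicate 1 alone ranked the other one higher. The 2 eIF4H genes, which encode cofactors of this helicase, were listed differently. eIF4H1 had an IDR summit in an intron, with a signal of 145 and rank 5363, replicate ranks of 8559, 3383 and 7948 and so a place in 2 of the 3 strongest sets, while eIF4H2 was listed by replicate 1 alone, at rank 20726. eIF4B, a further cofactor, was listed by replicate 1 and the pooled relaxed list at ranks 10908 and 20616. Only 57.9% of the 32-base words around its TSS occur once in the genome, which limits how well reads can be placed there. The same value was 77.0% for eIF3g1 and at least 90% for the other 42 genes.

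The cap-binding protein has 7 gene copies, counting eIF4EHP, and 2 of them had an IDR summit. eIF4E1, the general cap-binding protein, had the weakest IDR peak of the 14 genes, with a pooled signal of 102 at rank 7761 and 36 bp. It was absent from replicate 1. Replicates 2 and 3 gave signals of 19.95 and 45.1 at ranks 16552 and 7861 beside that summit, and replicate 2 had a stronger summit, with a signal of 30.1 at rank 11216, near another start site of the gene. Replicate 3 alone had it in its strongest set. The scaffold eIF4G1, on chromosome 4, reached the pooled relaxed list at rank 15016, with its summit at -1 bp. It ranked 13813, 12895 and 27407 in replicates 1, 2 and 3, with summits at -251, 185 and -34 bp. eIF4E6 was listed by replicate 2 alone at rank 6929, and eIF4E4 by none of the 5 lists.

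The testis copies were set beside the general gene of the same factor where both start sites can be shown. Each stretch runs from 60 bases before the TSS with the most transcripts to 10 bases of transcript in dm6, on the strand of the gene, and capitals again mark motif matches on either strand, which here are the DRE core, TGTCA, the CHR, GAGAG and the Ohler 7 core, all spelled out with the motif counts. For the cap-binding proteins the stretches are chr3L:8229164-8229233 (plus) for eIF4E3, chr3L:7894820-7894889 (plus) for eIF4E5, chrX:1162380-1162449 (minus) for eIF4E7 and chr3L:9402451-9402520 (minus) for eIF4E1. For the scaffolds they are chr3R:23819228-23819297 (minus) for eIF4G2 and chr4:930706-930775 (minus) for eIF4G1, and for eIF3g, which binds RNA at the mRNA channel, chr3R:20408205-20408274 (plus) for eIF3g2 and chrX:2610327-2610396 (minus) for eIF3g1.
eIF4E3 (testis): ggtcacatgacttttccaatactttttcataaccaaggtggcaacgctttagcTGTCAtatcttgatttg
eIF4E5 (testis): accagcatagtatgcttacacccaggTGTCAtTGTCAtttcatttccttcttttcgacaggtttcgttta
eIF4E7 (testis): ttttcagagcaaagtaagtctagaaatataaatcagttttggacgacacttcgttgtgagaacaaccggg
eIF4E1: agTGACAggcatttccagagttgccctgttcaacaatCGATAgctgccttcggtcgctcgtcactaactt
eIF4G2 (testis): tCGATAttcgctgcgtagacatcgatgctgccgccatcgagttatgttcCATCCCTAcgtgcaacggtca
eIF4G1: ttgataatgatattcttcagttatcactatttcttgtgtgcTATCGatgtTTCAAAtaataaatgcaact
eIF3g2 (testis): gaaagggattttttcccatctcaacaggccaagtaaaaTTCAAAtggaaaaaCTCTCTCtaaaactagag
eIF3g1: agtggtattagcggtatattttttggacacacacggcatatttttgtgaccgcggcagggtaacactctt
TGTCA stood in the stretches of eIF4E3, eIF4E5 and eIF4E1 alike, and a CGATA match in those of eIF4G2, eIF4G1 and eIF4E1, and no motif searched stood in all 5 testis stretches.

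Of the 6 testis copies, 4 (eIF3f2, eIF3g2, eIF4E5 and eIF4E7) had no summit in any of the 5 lists. eIF4E3, the cap-binding protein of spermatocytes, had a weak one: a pooled signal of 29.4 at rank 21509 and -100 bp, and signals of 9.50 and 15.4 at ranks 17711 and 20796 in replicates 1 and 3, with none in replicate 2. eIF4G2, the scaffold of the male germline, had signals of 32.4 and 49.3 at ranks 10419 and 7078 in replicates 2 and 3. It had none in replicate 1 or the pooled lists. The summits of replicates 2 and 3 lay near different annotated start sites. Beside the replicate 3 summit, replicate 2 had a weaker one at rank 12843. eIF4G2 was the only testis copy in a strongest set, that of replicate 3, and it shares a TSS with CG33111. The testis copies thus had 1 of 6 genes in the pooled relaxed list, against 20 of the 38 ubiquitous genes (52.6%) and 42.5% of protein-coding genes, and 6 genes are too few to set such a share beside the background.

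The late factors were listed in every replicate. eIF5B, the GTPase that joins the large ribosomal subunit, had a pooled signal of 245 and rank 2897 at -129 bp (chr3L:3460610-3460877), and replicates 1, 2 and 3 gave signals of 82.1, 73.5 and 89.1 at ranks 1873, 3785 and 3592. eIF5, which triggers GTP hydrolysis by eIF2, had no IDR summit but a pooled relaxed one at rank 8911 and ranks of 9212, 7629 and 11000 in the replicates. Its TSS is shared with CG46312.

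eIF6 (FBgn0034915), which binds the large subunit and is needed for its maturation, had the strongest peak of all eIF genes (chr2R:23850201-23850591). The pooled signal was 1890 at rank 53, and replicates 1, 2 and 3 gave signals of 545, 533 and 816 at ranks 34, 79 and 48. It had the best rank of all eIF genes in every replicate, and the replicate summits lay within 15 bp of each other, at -100, -95 and -110 bp from the TSS. An antisense RNA gene on the other strand, asRNA:CR45928, had the closest TSS, at 71 bp.

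Peak strength at the 14 genes lay close to that at other genes with an IDR summit. The median pooled signal was 219, with a range of 102 to 1890, against 208 for all 3391 protein-coding genes with an IDR summit. The median rank was 3380.5 against 3540, and the median distance -114.5 bp against -130 bp. The strongest summit lay upstream of the gene's closest TSS in 11 of the 14 (78.6%), against 82.8% of protein-coding genes. Of these, the summits of eIF2A, eIF4A, eIF4H1 and eIF5B lay inside the gene, downstream of another of its start sites. By annotation, 7 of the 14 summits lay outside the gene, 5 in a 5′ untranslated region and 2 in an intron.

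**Figure D3:**
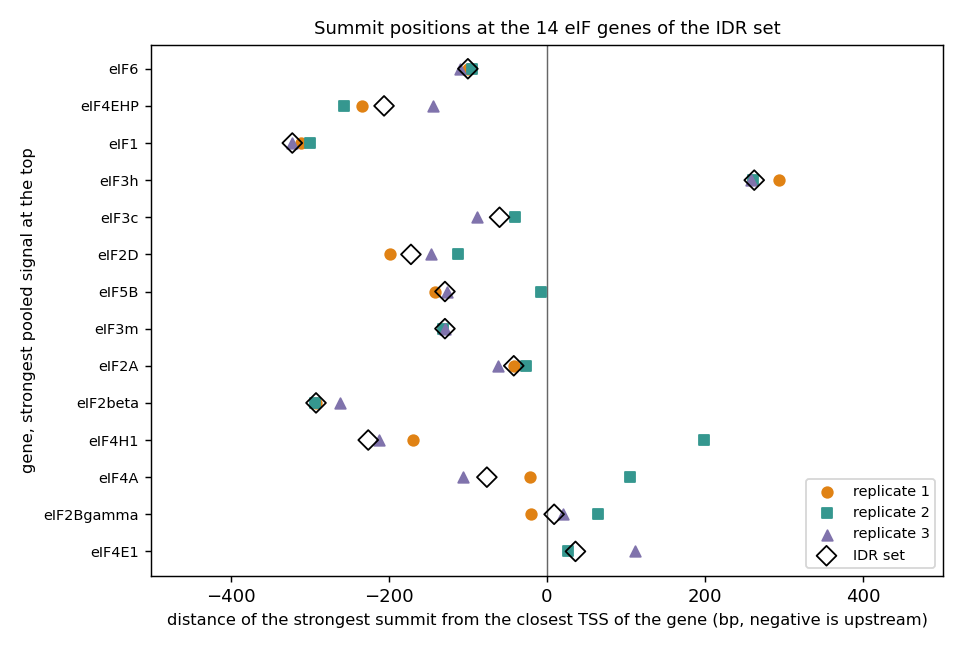
Distance in bp of the strongest summit from the closest TSS of the gene (horizontal axis, negative upstream) for the 14 eIF genes with an IDR summit (down, strongest first), in the IDR set and in each replicate that listed one. The replicate symbols of eIF6 lie within 15 bp of each other. Those of eIF4A, eIF4E1 and eIF4H1 are measured from more than 1 annotated start site, so close symbols there can mark summits farther apart.

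Counts were also split by gene structure. Of eIF genes with 2 or more annotated TSSs, 8 of 15 (53.3%) had an IDR summit, against 41.8% of protein-coding genes of that kind, and with 1 TSS it was 6 of 29 (20.7%) against 17.9%. Where another protein-coding gene starts within 500 bp, 6 of 19 eIF genes had an IDR summit (31.6%, against 39.9% of protein-coding genes), and where none does, 8 of 25 (32%, against 17.3%). In 10 of the 14 genes the TSS closest to the strongest summit was the eIF gene's own, and in the other 4 (eIF1, eIF3m, eIF4EHP and eIF6) another gene's TSS was closer.

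Promoters of eIF genes held the DRE more often than promoters at large. The motifs searched were the DRE (TATCGATA), the DRE core (CGATA, which every DRE contains), the E-box (CACGTG), the GAF element (GAGAG), the Motif 1 core (GGTCACAC), the Ohler 7 core (CATCNCTA), the CHR (TTTGAA) and TGTCA, on both strands from 250 bases before to 50 after the TSS, and TCTTT on the coding strand within 10 bases of the TSS, the core of the initiator known from ribosomal protein genes. A DRE was in 12 of 44 eIF promoters (27.3%), against 9.23% of protein-coding promoters. It was in 3 of the 14 promoters with an IDR summit, in 9 of the 30 without an IDR summit and in none of the 6 testis copies. All 12 genes had a summit in at least 1 of the 5 lists, and none of the 8 genes absent from every list held a DRE. With only 8 of the 44 eIF genes absent from every list, most of any 12 eIF genes would be listed. The same split was not taken over all protein-coding genes. TCTTT was in 4 promoters (9.09%, against 2.28%), those of eIF3d1, eIF3g1, eIF3i and eIF4A, of which eIF4A alone had an IDR summit.

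Of the other motifs, GAGAG was less common in eIF promoters and the rest were more common. The DRE core was in 61.4% of eIF promoters against 47.4%, the CHR in 52.3% against 40.3%, TGTCA in 47.7% against 41.3%, the Motif 1 core in 15.9% against 7.77%, the Ohler 7 core in 15.9% against 6.50%, the E-box in 6.82% against 4.20% and GAGAG in 15.9% against 30.2%. Within 100 bp of the 14 IDR summits, the DRE was found at 3 (21.4%, against 2.64% of all IDR peaks), those of eIF1, eIF2A and eIF6. TGTCA was at 5 (35.7% against 27.0%), GAGAG at 3 (21.4% against 23.0%) and the CHR at 2 (14.3% against 31.4%). The median GC content of these windows was 41.3% (range 20.9% to 57.2%), against 34.3% over all IDR peaks, and its part in the motif shares was not tested. The 14 summits all lay within 500 bp of a TSS, while the IDR set also holds peaks far from any TSS. The peak shares and GC values therefore set unlike kinds of peaks side by side. A match is a run of letters and not evidence of binding.

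**Figure D4:**
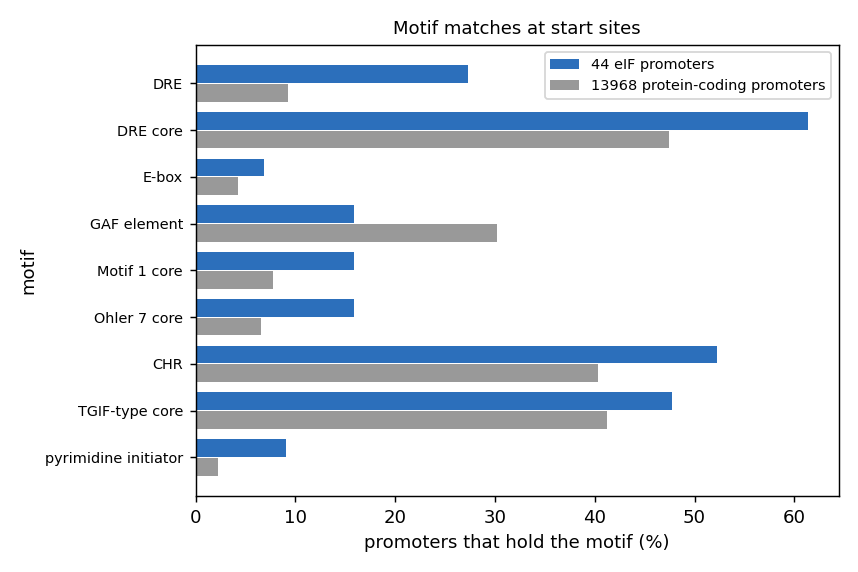
Percentage of promoters that hold each motif (horizontal axis) for the 44 eIF genes and all 13968 protein-coding genes, with each motif's pair of bars down the page, where the GAF element is GAGAG, the TGIF-type core TGTCA and the pyrimidine initiator TCTTT. The DRE stands at 27.3% against 9.23%, and the GAF element is the one motif lower in eIF promoters.

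In short lists of genes that act after or upon initiation, larger shares had IDR summits than among the eIF genes. Both lists were chosen with earlier results of these data known. The number of TSSs per gene was not taken into account. The difference was not tested and is no measure of these gene classes. Of 10 elongation and termination genes, 6 had one (60%, against 24.3% of protein-coding genes), with a median pooled signal of 234, and 8 had a pooled relaxed summit. eEF1gamma, a subunit of the elongation exchange factor, was the strongest of these, with a signal of 675 and rank 596, and replicate ranks of 458, 940 and 544. eEF1alpha1, which brings aminoacyl-tRNA to the ribosome, had a signal of 294, eEF2, which moves the ribosome along, 261, and the release factors eRF1 and eRF3 208 and 183.

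Of 27 regulators and partners of initiation, 19 had an IDR summit (70.4%), with a median signal of 144, lower than that of the 14 eIF genes. larp, whose mammalian counterpart binds the caps of mRNAs for translation proteins, had the strongest, with a signal of 2662, and replicates 1, 2 and 3 ranked it 24, 16 and 19. The poly(A)-binding protein gene pAbp, a partner of eIF4G, had a signal of 583, but at 498 bp from its TSS, near the edge of the window, and the strongest summit of replicate 1 in the window ranked 20045, far behind ranks 524 and 814 in replicates 2 and 3. Among genes that act directly on eIF4E and eIF2, the eIF4E-binding protein gene Thor had a signal of 159 and the eIF4E kinase gene Lk6 134, neither of them listed at its start sites by replicate 1. The eIF2alpha kinase gene Gcn2 had no summit in any list, and the kinase gene PEK, which does the same from the endoplasmic reticulum, had no IDR summit but a pooled relaxed one.

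**Figure D5:**
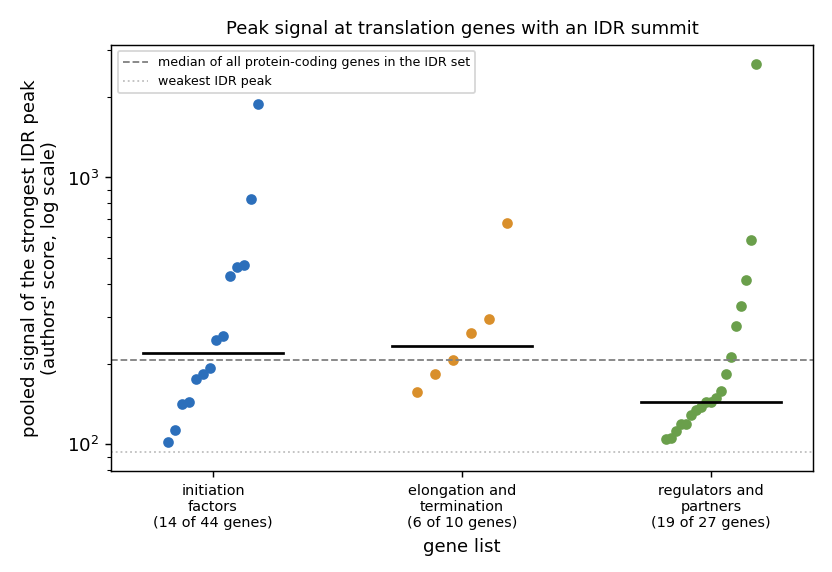
Pooled signal of the strongest IDR peak (vertical axis, the authors' score on a log scale) of each gene with an IDR summit, for initiation factors, elongation and termination genes and regulators and partners, with black bars at the medians of 219, 234 and 144. The dashed line is the median of 208 over all protein-coding genes with an IDR summit.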

How the data were processed

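Anti-GFP ChIP-seq of 3 replicates of 1 group gave the deposited peak lists. According to text files deposited beside the lists, the authors called peaks per replicate and on pooled replicates, all against 1 control alignment, and selected an optimal set by IDR. The software, its versions and the threshold were not given in the sources used here. Lists in dm6 were used. The dm3 lists were not used here. The deposited signal of a peak is the authors' enrichment score, and the deposited −log10 q-value was 4.28 for every IDR peak and was not used as a filter. Summits are the authors' offsets, written as 1-based positions.

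TSSs were taken from Ensembl release 115 for this assembly (18277 genes, 24111 TSSs on the main chromosomes). All peaks lay within the chromosome lengths, and 99.8% of 30593 annotated start codons read ATG in the genome sequence. A gene counted with a summit within 500 bp of any of its TSSs. An overlap of 50% or more of either peak made 2 peaks shared. Uniqueness is the share of 32-base words found once on the main chromosomes.

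The members and gene lists were chosen with earlier results of these data known, so no list was tested and counts stand beside those of all protein-coding genes. The testis copies are a list from background knowledge. Full replicate values were given for the 10 eIF genes with the strongest IDR peaks, every testis copy, genes whose IDR peak was in the strongest set of fewer than 2 replicates, and the genes with the summit farthest from and nearest to the TSS. Sequences were given for 3 of the strongest summits, without that of eIF6, and for start sites compared with a testis copy, where these could be given. Of the 28 regulators listed, nos was not analysed here. Alternatives were other TSS windows, stricter peak sets, closest or most upstream TSSs, other testis lists and leaving out each replicate. The work was done in Python 3.11.15 (pandas 2.3.3, numpy 2.4.6, matplotlib 3.10.9), and the steps were tested on simulated data. No sample was left out.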

Additional observations from a re-analysis of the deposited data

How the results depend on the processing

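Of 47 alternative settings, 36 left the value within 1.5 times the count reported, or within the replicate spread. This tally does not measure stability. It includes the 11 settings of the testis count, and the ubiquitous counts repeat those of all eIF genes wherever both were taken. The count of 14 eIF genes with an IDR summit, all ubiquitous, was 9 with the 4212 strongest IDR peaks and 9 with IDR peaks in the strongest sets of all 3 replicates (without eIF2Bgamma, eIF3c, eIF3m, eIF4E1 and eIF4H1), by construction from fewer peaks. The IDR set itself comes from all 3 replicates. Leaving out each replicate in turn kept the IDR peaks in the strongest sets of the others, so counts could only fall. They were 9 to 12 for all eIF genes and 9 to 12 for the ubiquitous ones. The count was 12 without replicate 1 (eIF2Bgamma and eIF4E1 lost) and 9 without replicate 2 or 3 (eIF3c, eIF3m and eIF4H1 lost as well). A TSS window of 200 bp gave 11 (without eIF2beta, eIF4EHP and eIF4H1), one of 1000 bp gave 16 (with eIF2Bbeta and eIF2Bdelta), and requiring no closer TSS of another gene gave 11 (without eIF3m, eIF4EHP and eIF6). The testis copies stayed at 0 in each of 11 settings, also with eIF4E4 and eIF4E6 added, or with eIF3d2 added, a choice made after seeing the data. Settings with fewer peaks or start sites could not raise a count of 0, and the added copies had no IDR summit. The 1000 bp window alone could have changed it. The count of 21 in the pooled relaxed list was 13 where the peak also had to be in all 3 replicates' lists (26.3% of protein-coding genes). The mean share per replicate, 31.8%, was 57.6% with the whole relaxed lists and 18.2% with 4212 strongest peaks per replicate, and 28.4% to 37.5% when each replicate was left out. Depth is unknown, and the lists stop at 30000 peaks. No paired analysis was possible because the series holds 1 group.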

Other observations

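Signal inside the transcribed region differed among the members. eIF5B (32.3 kb) held 7 IDR summits, of which 6 lay in introns between 9906 and 27726 bp from its nearest TSS. The strongest of these, with a pooled signal of 437 at rank 1273, exceeded the promoter peak at 245, and it lay 7942 bp from the closest TSS, that of sty, a regulator of receptor tyrosine kinase signalling. eIF4EHP (45.9 kb) held 3 intronic IDR summits with signals of 366, 312 and 128, of which the weakest lay 102 bp from a TSS of Syx1A, a membrane fusion gene within it. No other eIF gene held an IDR summit farther than 500 bp from its own start sites.

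The case of eIF3a, strong in replicates 2 and 3 and absent from replicate 1 and the pool, has parallels elsewhere. Of 6712 peaks shared by the strongest sets of replicates 2 and 3, 144 (2.15%) had no pooled relaxed peak, and 94 of these also had none in replicate 1. The corresponding shares were 1.44% for replicates 1 and 2 and 1.67% for replicates 1 and 3. Of the eIF genes, 7 were listed by replicate 2 alone and 2 by replicate 1 alone. The whole relaxed list of replicate 2 also held a summit at more protein-coding genes than that of replicate 1. Genes listed by 1 replicate alone were not counted over all protein-coding genes, so these counts do not set eIF genes apart.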
